A study of Drosophila melanogaster with 4 samples.

Results

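The regions described here are stretches of chromatin enriched for the histone variant H2Av within 3 Mb of the tips of 3 autosomal arms of Drosophila melanogaster. They were taken by position alone, as the regions of the authors' combined list whose midpoints lie in the first 3 Mb of 2L or 3L or in the last 3 Mb of 3R, where the arm's telomere lies at its last base. There were 297 of them among the 4698 regions of the combined list, with 104 on 2L, 102 on 3L and 91 on 3R. The tips are the ends of the assembled arms in FlyBase release 5, and the sources used here do not say how far these lie from the chromosome ends. Which genes lie there was not analysed here.

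H2Av replaces the core histone H2A in a part of the nucleosomes and serves the fly both as its H2A.Z, which is found beside the starts of active genes, and as its H2A.X, which is phosphorylated at DNA breaks. Fly telomeres carry arrays of the retrotransposons HeT-A, TART and TAHRE in place of the short repeats that telomerase adds in most eukaryotes, and they are capped by proteins that include HP1. Subtelomeric repeats next to these arrays can silence genes placed in them, while the unique sequence further in holds ordinary genes.

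The data came from S2-DRSC, a male cell line derived from late embryos, treated with double-stranded RNA against GFP, a gene the fly does not have, with 50 µg in a first and 200 µg in a second round. There were 2 H2Av immunoprecipitations, made with a rabbit polyclonal antibody raised against a peptide, and 2 inputs, all from cells with this same treatment and all from this 1 line. Each immunoprecipitated library had its own list, of 4198 regions for replicate 1 and 4070 for replicate 2, and the combined list, made for both libraries together, is not independent of them. The free-text descriptions of replicate 2 of the immunoprecipitation and replicate 1 of the input go against their titles, and the titles were followed. No label says that the replicates were separate cultures, and read depth is unknown.

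H2Av was enriched over a share of each chromosome tip that was close to its share of the rest of the arms. In the combined list the distal regions covered 16.3% of the outermost 3 Mb of 2L, 16.4% of that of 3L and 14.7% of that of 3R. The interior of the same arms, which leaves out these windows and the 3 Mb beside the centromere, was 13.9% covered on 2L, 14.3% on 3L and 15.0% on 3R. Against these interiors the tips of 2L and 3L were covered somewhat more and the tip of 3R slightly less. The excess on 2L depended on what the interior was taken to be: it was 2.35 percentage points as given and 0.077 points when the 3 Mb beside the centromere was counted in.

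The replicate lists gave the same order. On 2L the tip was 14.8% covered in replicate 1 and 14.2% in replicate 2 (14.5% ± 0.39, SD, n = 2 lists), against 12.6% and 12.3% in the interior (12.4% ± 0.21). On 3L it was 14.5% and 13.8% (14.1% ± 0.53), against 12.7% and 12.4% (12.5% ± 0.23). On 3R it was 12.7% and 12.5% (12.6% ± 0.15), against 13.4% and 13.0% (13.2% ± 0.30). The 2 values of the tip lay outside those of the interior on each arm, above them on 2L and 3L and below them on 3R. These SDs describe how the 2 lists differ, not how windows of an arm differ among themselves. With 3 arms no test of tip against interior can pass, since the smallest two-sided exact p is 0.25, and all such differences are given as descriptions.

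**Figure D1:**
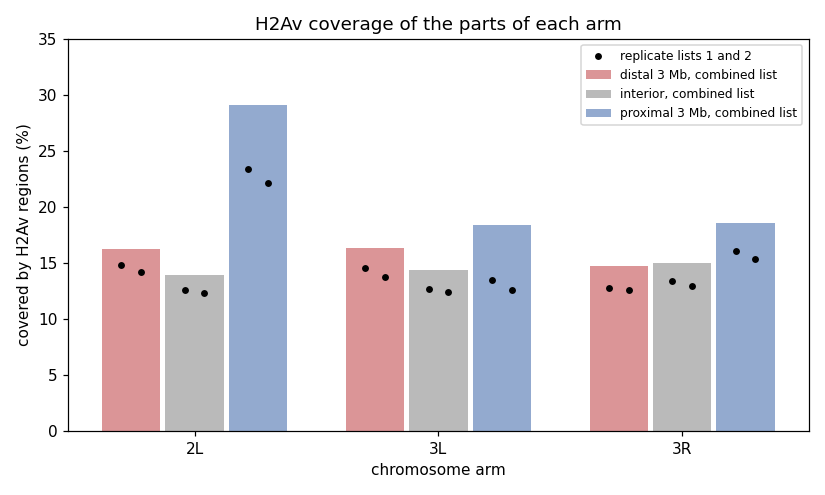
Share of sequence covered by H2Av regions (percent, vertical axis) in the distal 3 Mb, the interior and the 3 Mb beside the centromere of 2L, 3L and 3R. Bars are the combined list and dots the 2 replicate lists; the red bars of the tips stand at 16.3%, 16.4% and 14.7%, near the grey bars of the interiors at 13.9%, 14.3% and 15.0%.

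The size of the difference depended on how far the tip was taken to reach, on all 3 arms. On 2L the tip exceeded its interior by 1.64 percentage points with a window of 2 Mb, 2.35 with 3 Mb and 1.06 with 4 Mb. On 3L it did so by 6.20, 2.03 and 2.28 points. On 3R the differences were -5.46, -0.31 and -2.15 points. When each arm was cut into windows of 3 Mb from the tip inward, the distal window ranked 3 of 7 by coverage on 2L, 2 of 8 on 3L and 5 of 9 on 3R in the combined list. The windows ranged from 7.96% to 18.9% on 2L, from 11.2% to 21.5% on 3L and from 9.65% to 20.5% on 3R. Each distal window thus lay inside the range of its own arm. The 1 window of 3L above its tip, from 21 to 24 Mb, lay mostly in the 3 Mb beside the centromere. The highest of the other 3L windows held 15.3%, against 16.4% in the tip. In replicate 1 these values were 13.8% and 14.5%, and in replicate 2 they were 13.6% and 13.8%.

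Within the tips, coverage was uneven, with more in the first 0.5 Mb than in the rest of the first 1.5 Mb. In bins of 0.5 Mb counted from the tip, the first bin of 2L was 25.9% covered, the second 14.1% and the third 12.0%. On 3L these bins held 19.4%, 16.8% and 10.6%. On 3R they held 17.1%, 9.21% and 5.36%. Coverage therefore fell from bin to bin over the first 1.5 Mb on all 3 arms, and it did so in both replicate lists on 3L and 3R and on 2L, where replicate 1 gave 24.1%, 12.8% and 10.3% and replicate 2 gave 22.8%, 12.1% and 10.7%. Averaged over the 3 arms the bins held 20.8%, 13.4% and 9.33% in the combined list, with 64, 36 and 32 regions. The first bins of 2L, 3L and 3R lay above the median interior bin of their arm, at 12.7%, 14.5% and 14.7%. They lay below the densest interior bin, at 50.1%, 29.5% and 31.9%. Falls over 3 bins in a row also occurred in the interiors. On 2L the bins from 10 Mb inward held 50.1%, 16.5% and 11.7%. On 3L those from 16.5 Mb held 19.9%, 14.8% and 12.0%, and on 3R those from 7 Mb held 31.9%, 25.2% and 21.7%. Whether the fall at the tips differs from such interior falls was not tested.

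Beyond 1.5 Mb the arms parted. On 2L the next 3 bins held 11.0%, 17.5% and 17.2%, so the fall went on to 2 Mb, as it did in replicate 1 (10.2%) and replicate 2 (9.65%). On 3L they held 34.2%, 6.84% and 10.4%, so that a dense bin was followed by a sparse one. On 3R they held 8.03%, 33.3% and 15.1%. Of the 6 distal bins, 4 lay above the median interior bin of their arm on 2L (12.7%) and 3 did so on 3L (14.5%) and on 3R (14.7%).

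**Figure D2:**
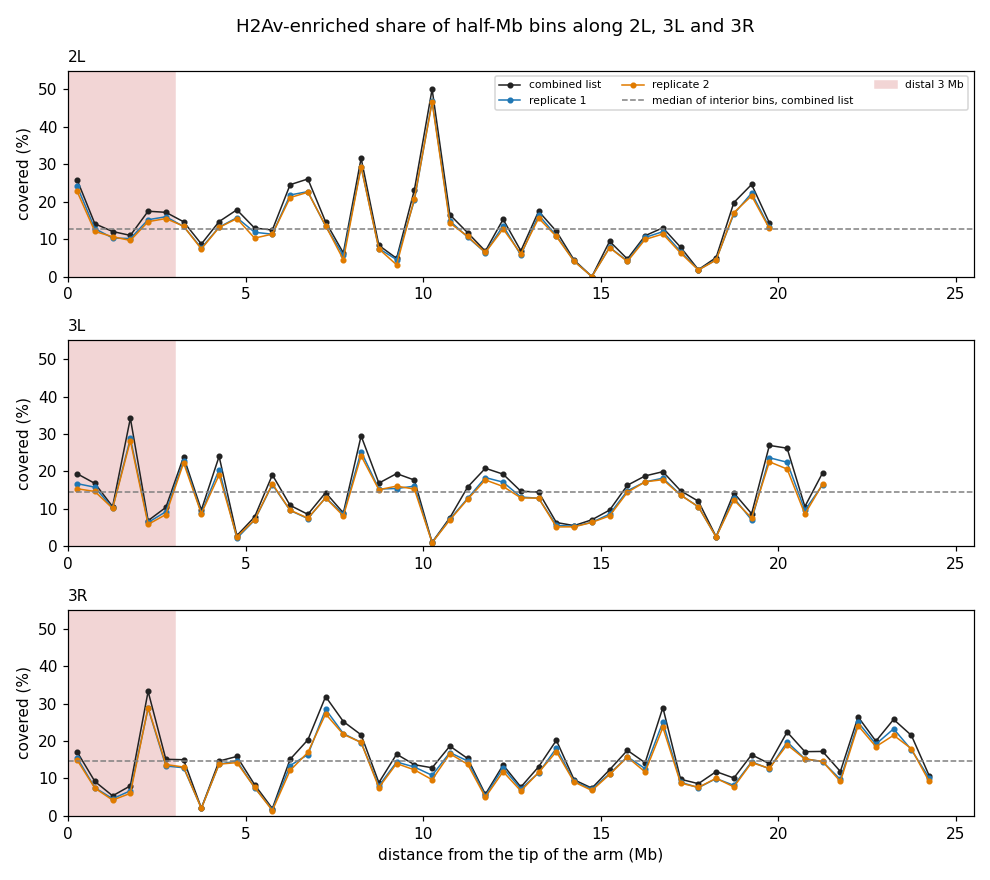
Coverage by H2Av regions (percent, vertical axis) in bins of 0.5 Mb against distance from the tip (Mb, horizontal axis), for the combined list and both replicate lists, without the 3 Mb beside the centromere. The shaded distal 3 Mb begins at 25.9%, 19.4% and 17.1% on 2L, 3L and 3R and holds a peak of 34.2% on 3L and of 33.3% on 3R; the dashed line is the median of the interior bins.

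The first 0.5 Mb was not evenly filled either. The first 100 kb were 20.4% covered on 2L with 7 regions, 3.17% on 3L with 2 regions and 11.5% on 3R with 3 regions. The mean of these was 11.7%, below the 14.5% of the 3 interiors joined. Between 200 and 300 kb the coverage was 38.2% on 2L, 50.5% on 3L and 17.3% on 3R, and the 3L value was 46.7% in replicate 1 and 44.0% in replicate 2. The 3R tip held no region between 100 and 200 kb in any list. Between 900 kb and 1 Mb none of the 3 tips held a covered base in any list. Bins of 100 kb without H2Av were not rare: 13 of the 90 in the tips (14.4%) and 117 of the 574 in the interiors (20.4%) were empty in the combined list, with 16.7% and 21.8% in replicate 1 and 18.9% and 22.1% in replicate 2.

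The 3L and 3R tips each held a dense block. The 3L block, from 1.5 to 2 Mb from the tip, held 37 regions that covered 171 kb of the 0.491 Mb covered in the whole tip, with a median width of 4039 bp and scores from 0.33 to 2.94. Replicate 1 had 38 regions there covering 28.8% of the block, and replicate 2 had 34 covering 28.2%. The 3R block, from 2 to 2.5 Mb from the tip, held fewer regions that were wider in the combined list, 25 with a median width of 5811 bp covering 166 kb of the 0.441 Mb covered there. Replicate 1 had 25 regions there covering 28.8%, and replicate 2 had 28 covering 28.9%. The difference in width depended on the list: the medians of the 3R and 3L blocks were 5001 and 3522 bp in replicate 1 but 3862 and 3647 bp in replicate 2. Of these regions of the combined list, 28 of 37 and 21 of 25 were found in both replicate lists.

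These bins were the densest of 3L and of 3R outside the 3 Mb beside the centromere when fixed bins were compared, above 29.5% and 31.9% for the densest interior bins. With windows of the same size moved in steps of 10 kb, a comparison added after the data were seen, the order turned round. The interior then reached 35.6% on 3L and 37.9% on 3R, against 34.9% in both tips. The maxima come from unequal numbers of windows, since the interiors are longer. Each tip had 6 fixed bins, against 37 in the interior of 3L and 43 in that of 3R. On 2L the densest interior bin, at 50.1%, was far above any distal one. The 3R tip also held a long sparse stretch: from 0.5 to 2 Mb its 29 regions covered 7.53%, with 6.28% in replicate 1 and 5.89% in replicate 2.

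**Figure D3:**
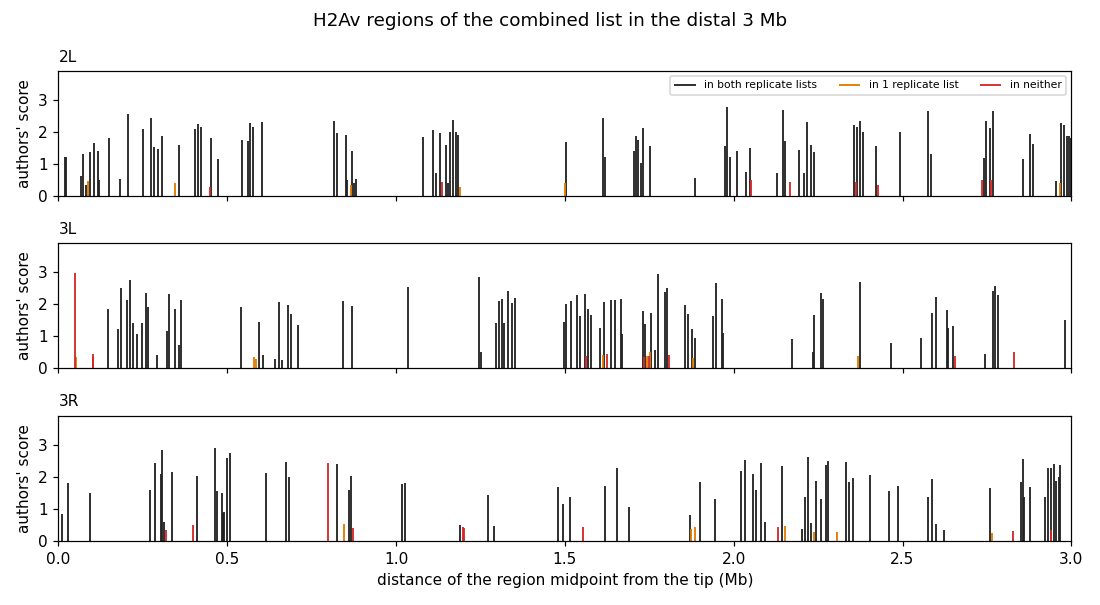
The authors' score (vertical axis, no unit) of each of the 297 distal regions of the combined list at its distance from the tip (Mb, horizontal axis), coloured by whether it was found in both, 1 or neither of the replicate lists. The block of 37 regions on 3L between 1.5 and 2 Mb and the block of 25 on 3R between 2 and 2.5 Mb stand out, and so does the lone red line of a score of 2.98 near the tip of 3L.

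The first H2Av region lay nearest to the assembled end on 3R, further in on 2L and furthest in on 3L in every list. On 3R the first region lay at 27892976 to 27895866, 9.19 kb from the tip, with a combined score of 0.83 and replicate scores of 0.81 and 0.89. Its distance from the tip was 9.22 kb in both replicate lists (9225 and 9224 bp). The next on 3R were at 27875446 to 27879868 and at 27809726 to 27813914, with scores of 1.79 and 1.49. All 3 were called in both replicate lists, and after them came no region of the combined list until 265 kb from the tip.

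On 2L the first region lay at 17174 to 19888 with a score of 1.22, and a second at 20026 to 23778 with a score of 1.23 began less than 1 kb behind it. Replicate 1 called the pair from 17207 and from 20068 with scores of 1.29 and 1.38, and replicate 2 from 17229 and from 20091 with scores of 1.21 and 1.21. The third region, at 66088 to 68420, had a score of 0.63 and was also in both lists, with 0.65 and 0.78. The outermost H2Av of 2L and of 3R was thus called at nearly the same bases in both libraries.

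The tip of 3L differed in this respect. The first region of the combined list, at 49188 to 50188, was 1001 bp wide with a score of 2.98, the highest of the tip, and it overlapped no region of either replicate list. The second, at 50484 to 52654, scored 0.36 and was found in replicate 1 only, at 50721 to 52112 with a score of 0.58. The third, at 101212 to 102482, scored 0.36 and was in neither. The first 3L region of replicate 2 began 145 kb from the tip, at 145373, where replicate 1 had its second, at 145370 to 149095 with a score of 1.84 against 2.09 in replicate 2. The distance of the first region on 3L was therefore 49.2, 50.7 or 145 kb by list.

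**Figure D4:**
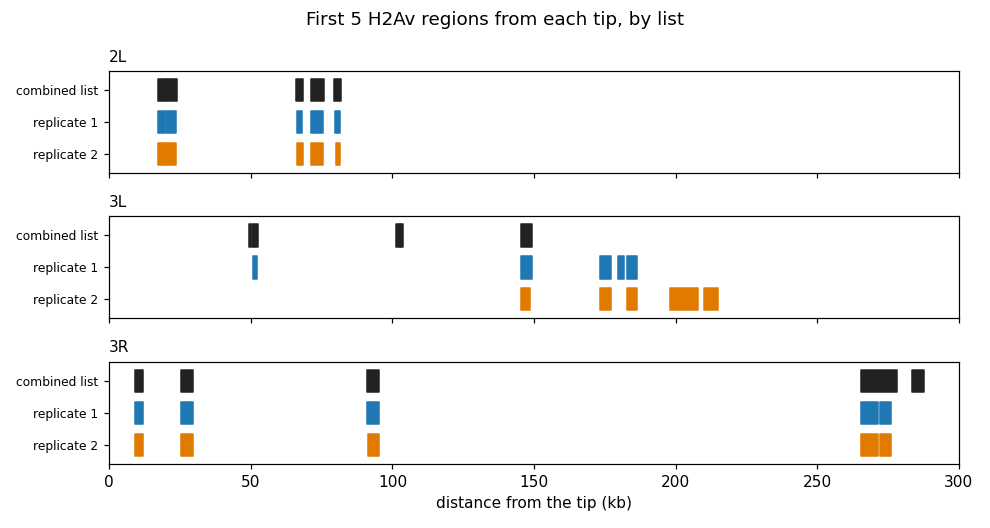
The first 5 H2Av regions from each tip (bars, to scale) against distance from the tip (kb, horizontal axis) in the combined list and in each replicate list. The lists coincide on 2L from 17.2 kb and on 3R from 9.19 kb, while on 3L the first region is at 49.2 kb in the combined list, 50.7 kb in replicate 1 and 145 kb in replicate 2.

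The distal regions were about as wide as the others. Their median width was 3783 bp (interquartile range 2645 to 5593) against 3689 bp (2587 to 5739) in the interiors. The medians of replicate 1 were 3626 and 3566 bp, and those of replicate 2 were 3583 and 3596 bp, where the interior was the wider. Single arms went either way, with 3659 bp in the tip of 2L against 3798 bp in its interior, and 3903 against 3592 bp on 3L.

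Regions of 10 kb or more, a limit set for this description, were 27 of the 297 distal regions (9.09%) and 122 of the 1772 interior ones (6.88%) in the combined list. In the replicate lists the order was the other way, with 3.78% of distal against 5.26% of interior regions in replicate 1 and 3.24% against 4.75% in replicate 2. Many of the wide distal regions were called in pieces by the replicate lists: 13 of the 27 were split into several regions in replicate 1 and 12 in replicate 2, against 32.0% and 41.8% of the 122 interior ones. The replicate lists nevertheless covered a median of 95.4% and 93.2% of their length.

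The widest distal region lay on 3L at 832248 to 855706 and scored 2.09 over its 23.5 kb. In each replicate list 2 regions made up 99.4% and 95.7% of it. The second widest of 3L, 12.2 kb at 1759366 to 1771530 in the dense block, had a score of only 0.58 and was covered to 71.7% and 67.9% by 3 regions in each replicate list. On 3R the widest were 19.3 kb at 25860654 to 25879912 and 15.1 kb at 25817056 to 25832152, both in the dense block of that arm, with scores of 2.52 and 2.42. The first of them was 2 regions in replicate 1 and 1 in replicate 2. On 2L the widest, 18.0 kb at 141876 to 159890 with a score of 1.82, was a single region in both lists, covered to 99.5% and 99.2%. The next on 2L, 14.6 kb at 808978 to 823596 with a score of 2.33, was 2 regions in each.

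The regions of the tips lay at uneven distances from each other, as did those of the interiors. The median gap between neighbours was 5537 bp (interquartile range 1735 to 23856) in the tips and 5447 bp (1657 to 25187) in the interiors. In the replicate lists the distal gaps of the 3 arms joined were the shorter. Their medians were 5249 bp for tips and 6701 bp for interiors in replicate 1, and 6317 and 6945 bp in replicate 2. By arm, the combined median was 4377 bp in the tip of 2L against 5271 bp in its interior, and 4547 against 5599 bp on 3L. On 3R it was 8910 against 5237 bp, but both replicate lists gave slightly shorter gaps in the tip. Replicate 1 had 6965 bp there and 7191 bp in the interior, and replicate 2 had 7634 and 7675 bp. On 2L replicate 1 had 4950 bp in the tip against 5584 bp, but replicate 2 had the longer gaps in the tip, 5610 against 5500 bp. A neighbour closer than 1 kb was found beside 97 of the 297 distal regions (32.7%) and beside 30.5% of the interior ones in the combined list. The replicate lists differed more, with 33.7% against 26.3% in replicate 1 and 32.0% against 26.7% in replicate 2. The excess was largest on 3R, with 37.6% against 23.9% in replicate 1 and 36.8% against 24.7% in replicate 2. In replicate 2 the tip of 2L had the smaller share, 25.8% against 27.6%. Runs of 3 or more regions less than 1 kb apart numbered 7 in the tips (7.78 per 10 Mb), of which 4 were on 3R, and none exceeded 3 regions. The interiors held 56 such runs (9.75 per 10 Mb), the longest of 5 regions.

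Gaps of at least 100 kb numbered 22 in the 3 tips, 7 on 2L, 7 on 3L and 8 on 3R, which is 24.4 per 10 Mb against 24.4 in the interiors. The longest gap of the interior was 639581 bp on 2L, 397921 bp on 3L and 344223 bp on 3R, each longer than any gap in the tip of that arm. The longest gap of each tip began between 1.04 and 1.29 Mb from its end. On 2L it ran over 308 kb from 1191393 to 1499499, on 3L over 207 kb from 1036569 to 1243799, and on 3R over 185 kb from 26428971 to 26614385. Each was the longest of its tip in both replicate lists as well, at 314 and 310 kb on 2L, 207 and 207 kb on 3L, and 185 and 186 kb on 3R.

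The regions beside these gaps differed in strength between the arms. On 3L both scored high, with 2.55 for the region at 1033200 to 1036568 and 2.84 for that at 1243800 to 1249784, and both were in both replicate lists. On 3R the region on the tip side, at 26614386 to 26616460, scored 0.46 and the inner one, at 26424630 to 26428970, scored 1.68, and both were in both lists. On 2L both were weak: the region at 1189620 to 1191392 scored 0.29 and was found in replicate 2 only, and the region at 1499500 to 1501094 scored 0.42 and was found in replicate 1 only.

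The authors' score, a value of no stated scale, had similar medians in the tips and the interiors. Its combined-list median was 1.62 for tips and 1.68 for interiors, with 1.73 and 1.78 for replicate 1 and 1.90 and 1.96 for replicate 2. Scores below 1 belonged to 86 distal regions of the combined list, or 29.0%, and to 29.6% of the interior ones. In the replicate lists the 3 tips joined had the larger share of such scores, with 24.4% against 20.8% in replicate 1 and 20.5% against 17.8% in replicate 2. This held on 3L and 3R, while on 2L the tip had the smaller share. There it was 21.6% against 24.0% in replicate 1 and 18.6% against 22.2% in replicate 2. The low-scoring distal regions of the combined list had a median width of 2063 bp against 4523 bp for the rest. In the interiors these widths were 1996 and 4414 bp.

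The 2 highest-scoring regions of 2L were 5.51 kb at 1978442 to 1983948 with a score of 2.78 and 5.47 kb at 2143706 to 2149178 with a score of 2.67. In replicates 1 and 2 the first scored 2.62 and 2.98 and the second 2.58 and 2.79. On 3R they lay at 27440150 to 27445550, with 2.89 in the combined list and 2.76 and 3.06 in the replicates, and at 27595488 to 27599706, with 2.83, 2.80 and 3.04. Both of these lay in the outermost 0.5 Mb of the arm. On 3L the highest score belonged to the 1001 bp region near the tip described above, and the next, 2.94, to 5.78 kb at 1773356 to 1779138 in the dense block, with 2.78 and 3.15 in the replicates. Apart from the 1001 bp region, each of these scored higher in replicate 2 than in replicate 1 and was covered to at least 94.2% in both.

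Most distal regions were found again in the separate lists. Of the 297, 248 overlapped a region of both replicate lists (83.5%, 95% Wilson interval 78.9 to 87.3), against 83.0% (81.2 to 84.7) of the interior regions and 79.4% of all 2501 regions on these 3 arms. The share was 86.5% on 2L, 82.4% on 3L and 81.3% on 3R. Another 17 were found in replicate 1 only and 4 in replicate 2 only. The remaining 28 were in neither (9.43%, 6.60 to 13.3), against 10.6% of the interior regions and 13.1% of all regions of the 3 arms. The intervals take regions as independent of each other, so they do not test the distal share against the interior one. The distal minus interior share found in both lists was 0.49 points. It was 2.05 with a tip of 4 Mb, 4.65 with the 3 Mb beside the centromere counted as interior, and -1.32 for regions at or above the median score.

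By their medians, the regions found again in both lists were wider and higher in score than the others. Distal regions in both lists had a median width of 4266 bp and a median score of 1.80. Those in 1 list only had 1913 bp and 0.38, and those in neither had 1251 bp and 0.42. The interior medians were close to these, with 4079 bp and 1.83 in both lists, 1931 bp and 0.41 in 1 list only, and 1305 bp and 0.42 in neither. Of the 211 distal regions with a score of at least 1, 209 were in both lists (99.1%), while of the 86 below 1 it was 39 (45.3%). In the interiors it was 1246 of 1248 (99.8%) and 225 of 524 (42.9%). The shortest region was 1301 bp in replicate 1 and 1304 bp in replicate 2, against 1001 bp in the combined list. Of the 17 distal regions shorter than any replicate region, 16 were in neither list, as were 92 of the 95 such interior regions.

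**Figure D5:**
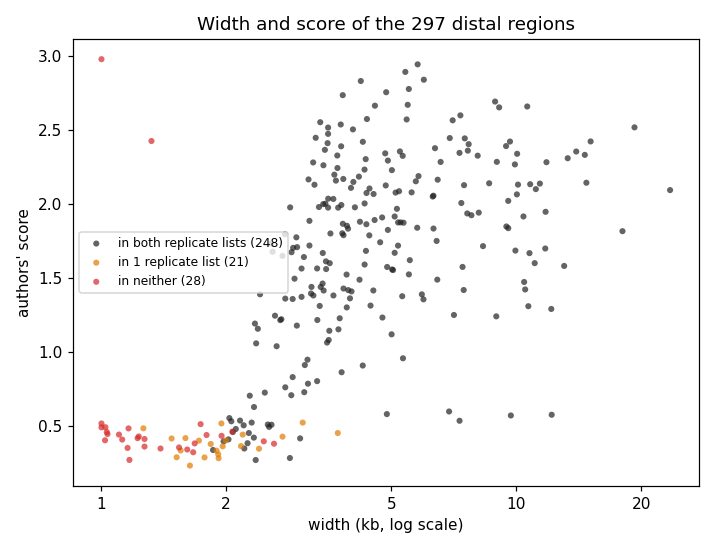
Width (kb, log scale, horizontal axis) against the authors' score (vertical axis) of the 297 distal regions, coloured by whether they were found in both (248), 1 (21) or neither (28) of the replicate lists. Regions in neither sit at low score and small width, apart from a pair of narrow ones with scores of 2.98 and 2.42.

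Among the distal regions in neither list, 2 stood apart by their score. One was the first region of 3L. The other, at 27105250 to 27106570 on 3R, was 1321 bp wide with a score of 2.42, lay 798 kb from the tip, and lay 20.3 and 21.0 kb from the nearest regions of replicates 1 and 2. On 2L the highest score of a region in neither list was 0.51, at 2050702 to 2052436. The score of a region absent from both separate lists rests on the combined list alone.

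Set directly against each other, the replicates placed most of the H2Av of the tips alike, with differences between the arms. Of the 291 distal regions of replicate 1, 268 overlapped replicate 2 (92.1%, 95% Wilson interval 88.4 to 94.7), against 94.3% (93.1 to 95.3) in the interiors. Of the 278 of replicate 2, 270 overlapped replicate 1 (97.1%, 94.4 to 98.5), against 97.6% (96.7 to 98.2). On 3L all 94 distal regions of replicate 2 were found in replicate 1, against 97.8% in the interior. There 12 of the 104 of replicate 1 were not found in replicate 2, which left 88.5% found, against 95.3% in the interior. On 3R 95.3% of the distal regions of replicate 1 were found in replicate 2, against 94.2% in the interior. The reverse shares on 3R were 93.1% and 98.4%. On 2L the tip and interior shares were 93.1% and 93.3% for replicate 1, and 97.9% and 96.2% for replicate 2. The sequence called in both lists was 88.5% of that called in either in the tips and 90.5% in the interiors. Over 262 matched distal pairs the starts lay a median of 74.5 bp and the ends 81.5 bp apart, against 83.5 and 80 bp over 1530 interior pairs. Replicate 2 had the higher score in 208 of the 262 distal pairs (79.4%), and in 79.0% of the interior ones.

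Beside the 3 Mb limit on 2L, the innermost region taken, at 2998294 to 3001064, crossed the limit with a score of 1.79, and the next one left out, at 3016456 to 3024712, scored 1.87. On 3L the pair scored 1.52 and 1.08, and on 3R 2.36 and 2.16. All 6 were in both replicate lists.

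The opposite ends of the arms and the tips of the other long arms give a scale for these values. The 3 Mb beside the centromere was 29.1% covered on 2L, 18.4% on 3L and 18.5% on 3R in the combined list. On 3L this order against the tip turned round in the replicate lists, where the proximal end held 13.4% and 12.6% against 14.5% and 13.8% in the tip. Proximal regions of the 3 arms had a median score of 0.69 in the combined list against 1.62 in the tips. The gap was smaller in the replicate lists, at 1.34 against 1.73 in replicate 1 and 1.55 against 1.90 in replicate 2. In the combined list it lay on 2L (0.56 against 1.59) and 3L (0.63 against 1.67), while 3R had 1.59 against 1.65. Of the proximal regions, 61.8% were found in both replicate lists, against 83.5% of the distal ones. The distal 3 Mb of 2R and of X, at their last and first bases, were 24.1% and 22.6% covered, against 17.9% and 18.3% in their interiors, so 3R was the 1 long arm of 5 whose tip was covered less than its interior. These differences were not tested.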

How the data were processed

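Chromatin from S2-DRSC cells was immunoprecipitated with an H2Av antibody and sequenced. The authors deposited 1 list of enriched regions for each of the 2 immunoprecipitated libraries and 1 for the replicate set, each region with start, end and a score whose scale no header or label gives. Per the submitters' processing notes Bowtie 0.12.7 was used, and per the file headers the genome is FlyBase release 5. The sources used here name neither peak caller nor threshold, and do not say how input was used or the combined list made. No list for the 2 input libraries was used here. The lists hold no counts, so depth is unknown.

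Regions with a midpoint within 3 Mb of the tip of 2L, 3L or 3R were taken from the combined list. Coverage was counted base by base inside each window. The interior of an arm was the arm without its distal 3 Mb and without the 3 Mb beside the centromere. A region was found in a replicate list if it overlapped it by at least 1 bp, and shares have 95% Wilson intervals, which cover counting error only. Gaps ran between neighbouring regions of the same window. Python 3.11.15, NumPy 2.4.6, pandas 2.3.3, SciPy 1.17.1 and matplotlib 3.10.9 were used. Coverage, median width, median gap, the share found in both lists and the first region from the tip were tested on simulated data. The other calculations were not tested in this way. The titles gave groups and replicate numbers. No test was made: 2 lists of 1 group allow none over samples, and with 3 arms the smallest two-sided exact p is 0.25.

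Named regions were, per tip, the first 3, the 2 widest, the 2 with the highest score, the 2 beside the longest gap, and the highest-scoring one in neither replicate list. Blocks of dense or sparse calls were named after their values were seen. The members, windows and limits were chosen with earlier results of these data known. Genes and sequences were not used here, since the only gene table is of release 6 and no genome was given.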

Additional observations from a re-analysis of the deposited data

Results flagged for a closer look

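The tips differed in direction from arm to arm. Coverage of the distal 3 Mb minus that of the interior was 2.35 percentage points on 2L, 2.03 on 3L and -0.31 on 3R in the combined list. Both replicate lists gave a positive difference on 2L (2.20 and 1.94) and 3L (1.82 and 1.39) and a negative one on 3R (-0.64 and -0.43). The difference between the arms was not tested.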

How the results depend on the processing

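Depth is unknown, so a region missing from a list may be absent or below that list's threshold. No paired analysis was possible because the input libraries have no list here, which leaves 1 group, and no result came from a test. All differences here are tip minus interior, with the cause of any change not tested. For the 3 arms joined, coverage differed by 1.31 percentage points, and by 0.73 and 0.33 with distal windows of 2 and 4 Mb, 0.29 with the centromere-side 3 Mb counted as interior, 0.099 with regions at or above the median score only, 0.81 with the sequence called in both replicate lists, and 0.93 to 1.09 when a replicate was left out. In the same order of settings the differences were 1.64, 1.06, 0.077, 1.13, 1.94 and 1.94 to 2.20 on 2L. On 3L they were 6.20 with 2 Mb, 1.46 with the wider interior, 0.74 with the score limit, 1.27 in both lists and 1.39 to 1.82 without a replicate. On 3R they were -5.46, -2.15, -0.73, -1.43, -0.68 and -0.64 to -0.43. Regions per Mb differed by 2.16, by 1.14 and 0.043 with 2 and 4 Mb, by -0.16 with the wider interior, by 0.15 with the score limit and by 2.70 to 3.57 without a replicate. Median widths differed by 94 bp, by 237 bp with the score limit, 172 bp with regions within 200 bp merged, -7.5 bp in both lists and -12.5 to 60 bp without a replicate. Median gaps differed by 90 bp, by -126 bp with 2 Mb, -837 bp in both lists and -1452 to -628 bp without a replicate. The share found in both replicate lists differed by 0.49 points, by 2.05 with 4 Mb, 4.65 with the wider interior, -1.32 with the score limit and 0.086 to 1.58 when only 1 replicate list was used. With sliding windows, chosen after the data were seen, the densest 0.5 Mb differed by -0.75 points on 3L and -2.99 on 3R. The longer interiors offered more windows than the tips. The difference in coverage of the whole tip kept its sign on each arm under every setting run.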

Other observations

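On the whole of 2L, 3L and 3R, 10 regions of the combined list scored at least 1 and overlapped neither replicate list: 2 in the tips, 2 in the interiors and 6 in the 3 Mb beside the centromere. The highest after the first region of 3L was 2.84, on 3L at 24265052 to 24266052, which like it was 1001 bp wide, the shortest width in the combined list. That region lay 39.3 kb from the nearest region of replicate 1 and 39.2 kb from that of replicate 2, while the first region of 3L lay 0.53 kb from one of replicate 1 and 95.2 kb from the nearest of replicate 2.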
